A study of Mus musculus with 15 samples.

Results

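The megakaryocyte-erythroid progenitor (MEP) and the granulocyte-macrophage progenitor (GMP) were compared in mouse cells labelled with the Idh2 R140Q mutation. The 4 libraries, 2 of MEP and 2 of GMP, were chosen from the 15 of the study by their sample labels, and each MEP library shares a title prefix with a GMP library, which the labels do not say marks the same animal. The assay was reduced representation bisulfite sequencing of genomic DNA, in which unmethylated cytosines are converted and the share of unconverted reads at a CpG is its methylation level, mostly in CpG-rich restriction fragments. The Idh2 R140Q cells had the genotype Mx1-cre-;Dnmt3af/f;Idh2 R140Q, so Dnmt3a was floxed but the Cre that would delete it was absent, and how the mutant Idh2 was introduced is not given in the sources used here. Methylation reads give no check of the genotype. MEP were sorted as lineage-negative Kit+ Sca1- cells without CD34 and CD16/32, and GMP as such cells with both markers, on a C57BL/6 background of unstated age. Values at the same regions are also given for Dnmt3a knockout MEP and GMP (Mx1-cre+;Dnmt3a-/-, 2 libraries each), for malignant double mutant cells from the MEP gate (Mx1-cre+;Dnmt3a-/-;Idh2 R140Q, 3 libraries) and for cells labelled wild type (Mx1-cre+;Dnmt3af/f, 2 libraries each of MEP and GMP). The label wild type is the submitters', and those cells carry the floxed Dnmt3a allele together with Mx1-cre. Titles of the wild type and knockout libraries carry GFP, which the labels do not explain. Those of the Idh2 R140Q and double mutant libraries do not carry it. Replicates are labelled biological but are not said to be separate animals, so p-values may measure only the spread between samples.

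MEP give rise to red cells and platelets and GMP to neutrophils and monocytes. The fates draw on different transcription factors, with GATA factors and KLF1 acting on the erythroid side and C/EBP factors and PU.1 on the granulocyte side, and enhancers and promoters used in a lineage tend to lose CpG methylation there. Normal IDH2 makes 2-oxoglutarate in mitochondria, while the R140Q form makes 2-hydroxyglutarate, which inhibits the TET enzymes that start removal of DNA methylation.

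Each sequence below is 5′ to 3′ on the plus strand of mm9 and comes from a region whose methylation differed between MEP and GMP. All but that of Rhd are 300 bases around the centre of the region's measured CpGs; that of Rhd is the 65 bases of such a stretch that lie before the transcript start, with 2 of the 6 measured CpGs, and the other 235 bases are not shown. Capital CG marks the measured CpGs, and the other capitals mark matches to AGATAA, the core of GATA factor sites, or to TTGCNNAA, a form of the C/EBP site, on either strand. The regions in Sec22b (chr3:97723076-97723375) and Kifc3 (chr8:97631271-97631570) had the largest gain in MEP, and those in Clybl (chr14:122583278-122583577) and Gm13842 (chr5:116476562-116476861) the largest loss, where gain and loss here mean a level higher or lower in MEP than in GMP. The other 3 were picked after their values were seen, because they lie at or near lineage genes: the Rhd promoter (chr4:134420386-134420450), a region 73528 bp upstream of the Gata2 start (chr6:88070208-88070507) and a coding exon of Ctsg (chr14:56719424-56719723).
Sec22b intron: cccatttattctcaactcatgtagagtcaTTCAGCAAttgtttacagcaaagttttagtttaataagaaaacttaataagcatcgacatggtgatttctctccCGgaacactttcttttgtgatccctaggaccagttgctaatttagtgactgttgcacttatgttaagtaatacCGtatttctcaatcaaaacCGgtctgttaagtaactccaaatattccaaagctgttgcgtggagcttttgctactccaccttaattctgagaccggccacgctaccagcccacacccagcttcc
Kifc3 coding exon: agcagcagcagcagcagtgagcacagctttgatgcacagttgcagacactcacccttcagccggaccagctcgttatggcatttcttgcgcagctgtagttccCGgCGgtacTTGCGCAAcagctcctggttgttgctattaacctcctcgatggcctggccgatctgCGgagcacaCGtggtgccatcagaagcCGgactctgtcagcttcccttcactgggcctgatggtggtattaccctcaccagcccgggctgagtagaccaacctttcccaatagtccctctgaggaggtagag
Clybl intron: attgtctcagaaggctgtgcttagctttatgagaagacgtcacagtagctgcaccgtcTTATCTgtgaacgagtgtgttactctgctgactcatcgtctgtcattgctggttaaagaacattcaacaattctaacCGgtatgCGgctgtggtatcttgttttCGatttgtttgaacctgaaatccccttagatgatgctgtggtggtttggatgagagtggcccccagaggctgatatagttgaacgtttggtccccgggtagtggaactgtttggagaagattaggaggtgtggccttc
Gm13842 non-coding exon: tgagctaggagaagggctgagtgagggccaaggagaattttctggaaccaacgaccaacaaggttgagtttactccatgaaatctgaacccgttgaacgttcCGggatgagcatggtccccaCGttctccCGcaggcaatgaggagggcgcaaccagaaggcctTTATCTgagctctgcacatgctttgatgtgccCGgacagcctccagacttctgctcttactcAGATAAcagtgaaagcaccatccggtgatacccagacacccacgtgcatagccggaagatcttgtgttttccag
Rhd promoter: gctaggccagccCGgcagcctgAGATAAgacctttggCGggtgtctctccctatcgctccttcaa
upstream of Gata2: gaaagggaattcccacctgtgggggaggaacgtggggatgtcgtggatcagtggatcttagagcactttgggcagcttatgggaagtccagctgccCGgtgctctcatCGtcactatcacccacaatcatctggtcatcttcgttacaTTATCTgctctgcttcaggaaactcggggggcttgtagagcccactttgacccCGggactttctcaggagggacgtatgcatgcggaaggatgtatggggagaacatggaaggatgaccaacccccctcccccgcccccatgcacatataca
Ctsg coding exon: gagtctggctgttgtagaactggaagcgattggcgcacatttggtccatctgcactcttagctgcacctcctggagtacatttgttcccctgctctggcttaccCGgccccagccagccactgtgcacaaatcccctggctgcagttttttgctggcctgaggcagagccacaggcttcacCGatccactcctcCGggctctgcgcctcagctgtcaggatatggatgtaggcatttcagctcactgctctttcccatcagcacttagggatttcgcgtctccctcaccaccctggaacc
The Sec22b and Kifc3 sequences each hold 1 match to TTGCNNAA and none to AGATAA. Those of Clybl, the Rhd promoter and the region upstream of Gata2 each hold 1 match to AGATAA, that of Gm13842 holds 2, and none of these 4 matches TTGCNNAA. The Ctsg sequence holds neither.

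The 4 libraries held 19536034 and 24587340 reads over cytosines in MEP, against 22626291 and 19306705 in GMP (replicates 1 and 2). A CpG was used if it lay on an autosome and had at least 10 reads in all 4 libraries, with both strands summed, which left 331157 CpGs with a median depth of 26 to 39 reads. The genome was cut into 1 kb windows, and those that held 3 or more such CpGs are called regions here. There were 38814, with a median of 4 CpGs each and of 137 to 197 reads per library. The labelled wild type libraries stood apart in their sex chromosomes: X chromosome reads were 1.23% to 1.43% of the autosomal reads in Idh2 R140Q and 2.21% to 2.25% in wild type libraries, and Y chromosome reads were 198.8 to 287.8 per 1000000 autosomal reads in Idh2 R140Q and 54.0 to 57.5 in wild type libraries. The MEP and GMP libraries of the mutant did not differ in this way, and sex chromosomes were left out of all results.

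Over all 331157 CpGs, mean methylation was 40.0% and 39.4% in the MEP libraries, against 40.7% and 41.5% in the GMP libraries. Both MEP libraries lay below both GMP libraries, with means of 39.7% ± 0.419 in MEP and 41.1% ± 0.568 in GMP (SD, n = 2 each) and a difference of -1.45 points. The exact two-sided permutation test gave p = 0.333, the smallest that 2 libraries against 2 can give, so no such mean can pass 0.05 here.

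The same order held in each class of CpGs, with the class set by the mean of the 4 libraries. CpGs below 20% (174451) stood at 1.79% and 1.5% in MEP and 2.49% and 2.01% in GMP, a difference of -0.608 points. CpGs at 20% to 80% (38631) stood at 54.7% and 53.0% in MEP and 55.2% and 59.8% in GMP, a difference of -3.63 points. CpGs above 80% (118075) stood at 91.6% and 90.9% in MEP and 92.5% and 93.9% in GMP, a difference of -1.98 points. The exact permutation p was 0.333 for each class (n = 2 each). In the middle class the size rested on the GMP libraries: without GMP replicate 2 the difference was -1.30 points, and without GMP replicate 1 it was -5.97. Below 20% it was -0.368 points without GMP replicate 1, and above 80% it was -1.26 without GMP replicate 2. The share of methylated reads on the mitochondrial genome, where little methylation is expected, was 1.12% and 0.280% in MEP and 2.43% and 1.31% in GMP. It ranked the 4 libraries in the same order as the class below 20%, and its part in that class was not tested.

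**Figure D1:**
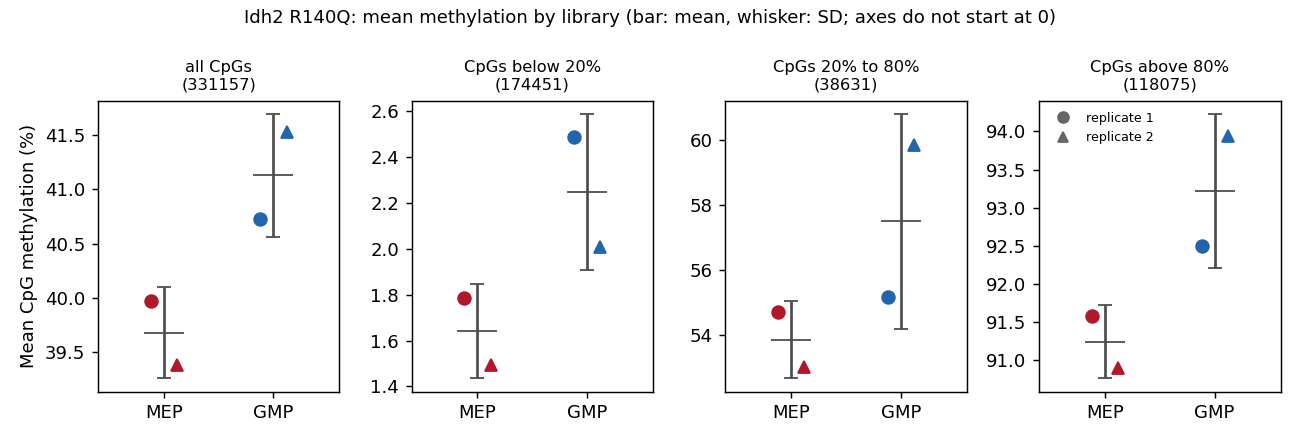
Mean CpG methylation (y axis, %; axes do not start at 0) in each Idh2 R140Q MEP (red) and GMP (blue) library, for all CpGs and for CpGs below 20%, at 20% to 80% and above 80%; circles are replicate 1, triangles replicate 2, and bars with whiskers the mean and SD. Both MEP libraries lie below both GMP libraries in every panel, and GMP replicate 2 at 59.8% stands apart in the middle class.

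Against this small overall shift, a few regions differed by far more, in both directions. A region was called where a quasi-binomial model of methylated and unmethylated reads gave a Benjamini-Hochberg adjusted p under 0.05 and the group means differed by at least 10 points. Of the 38814 regions tested, 56 were called (0.144%), of which 36 were higher in MEP (0.0928%) and 20 lower (0.0515%). The median difference was 42.4 points (16.8 to 68.8) in those higher in MEP and -46.3 points (-65.9 to -22.1) in those lower. MEP and GMP values did not overlap in any of the 56, where 30.1% of all regions did not overlap. Of the 224 CpGs in these regions, 219 lay on their region's side, and at 206 the libraries of the 2 cell types did not overlap. Reads of these CpGs made the calls, so this is no separate support, and the shares over all CpGs are not given.

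The number of calls depended on every library of the comparison. Without MEP replicate 1 there were 13 higher and 10 lower regions, and without MEP replicate 2 there were 4 and 1. Without GMP replicate 1 there were 1 and 0, and without GMP replicate 2 there were 22 and 9. The model also takes its spread from the other genotypes: on leaving out either wild type GMP library there were 16 and 8, and on leaving out either knockout GMP library 15 and 9, while leaving out a wild type MEP library (28 and 19) or a knockout MEP library (27 and 18) changed them less. Fitted to the 4 Idh2 R140Q libraries alone, with 2 residual degrees of freedom, no region was called, and limma called 7 and 3. The main fit does not pair libraries. With the title prefix as a block in all genotypes no region was called. With that block in the Idh2 R140Q libraries alone there were 12 and 4, among them 6 of the 12 largest gains and 2 of the 12 largest losses. All 56 kept their direction in each of these fits. This was fixed in advance, since MEP and GMP values did not overlap in any of the 56.

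**Figure D2:**
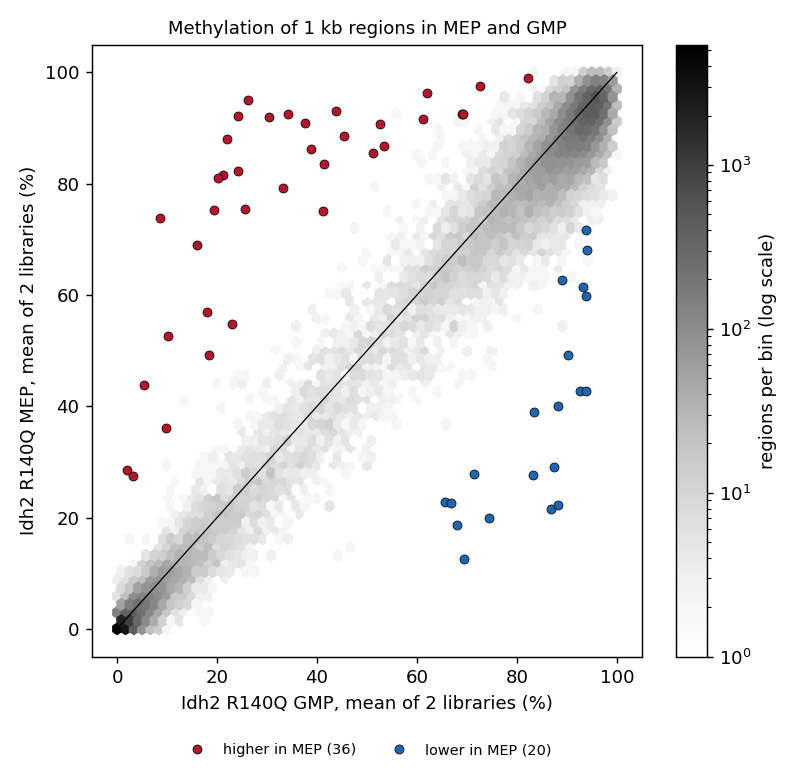
Mean methylation of each 1 kb region in Idh2 R140Q MEP (y axis, %) and GMP (x axis, %), the mean of 2 libraries each; grey bins count all 38814 regions on a log scale, and coloured points are the called regions. The 36 regions higher in MEP lie where GMP are at 2.02% to 82.2%, and the 20 lower in MEP where GMP are at 65.5% to 94.0%.

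At a looser threshold the differences ran mostly one way. At an unadjusted p under 0.05 stood 4537 regions (11.7%), the called ones included, with 677 higher in MEP (1.74%) and 3860 lower (9.94%). The 3860 were of 2 kinds: 1652 of them (42.8%) were over 50% in GMP and the other 2208 were not. Over all 3860 the median was 1.28% in MEP and 5.97% in GMP, the median difference was -3.89 points, and 875 differed by at least 10 points. These medians describe neither kind on its own. In wild type cells 59.6% of the 3860 were lower in MEP, where 57.2% of all regions were.

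The gain in Sec22b, which encodes a membrane-fusion protein of transport between endoplasmic reticulum and Golgi, was the largest. Its intron region (chr3:97723001-97724000) stood at 95.5% and 94.5% in MEP, against 31.9% and 20.5% in GMP. The MEP libraries were nearly full and the GMP libraries low, with a difference of 68.8 points (adjusted p = 0.00102). It was the only region that stayed called without each of the 4 libraries in turn (adjusted p = 0.00891 to 0.0326). A second called region lay 105 kb away in an intron of Notch2, the gene of a Notch receptor (chr3:97828001-97829000), with 57.8% and 89.9% in MEP and 11.6% and 5.56% in GMP. There the MEP libraries differed more from each other than the GMP libraries did, and the difference was 65.3 points (adjusted p = 0.0437).

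Kifc3, a kinesin motor gene, carried its region in a coding exon (chr8:97631001-97632000), with 90.9% and 93.3% in MEP and 27.6% and 20.6% in GMP. An intron of Cdk6, the kinase gene that drives entry into the cell cycle (chr5:3382001-3383000), stood at 79.5% and 82.6% in MEP and 25.2% and 15.2% in GMP. Near Sgms2, which encodes a sphingomyelin synthase (chr3:131129001-131130000, 81436 bp from its start), the values were 84.4% and 78.6% in MEP and 21.1% and 21.5% in GMP. None of these groups overlapped, which the choice of regions required. The differences were 68.0, 60.9 and 60.2 points (adjusted p = 0.00293, 0.0172 and 0.00177). With limma the adjusted p were 0.0354, 0.0571 and 0.0473, so Cdk6 was not called. The Cdk6 call was also lost without any 1 of the 4 libraries. Lass6, a ceramide synthase gene, was higher in MEP at a region 821 bp from its start (chr2:68798001-68799000), with 86.3% and 95.7% in MEP and 35.7% and 39.4% in GMP, a difference of 53.4 points (adjusted p = 0.0316, and 0.171 with limma).

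The other large gains in MEP lay in an intron of Rbms1, an RNA-binding protein gene (66.2 points, adjusted p = 0.00293), near Sdad1 (58.3, 0.00258) and in a coding exon of Sall2, a zinc-finger factor gene (58.0, 0.00258). Introns of Snx18, a sorting nexin gene (61.6 points), and of Rab20, a small GTPase gene of endosomes (56.0), and a region near Pmaip1, which encodes the cell death protein Noxa (52.9), had adjusted p of 0.0292, 0.0477 and 0.0322. With limma Snx18, Rab20 and Pmaip1 stood at 0.0788, 0.171 and 0.140, and Rbms1, Sdad1 and Sall2 at 0.0354, 0.0222 and 0.0423. MEP values of these 6 regions were 60.4% to 95.7% and GMP values 11.5% to 35.8%, so the groups were far apart in each. Of the 12 regions with the largest gain, 7 stayed called without MEP replicate 1, 3 without MEP replicate 2, 1 without GMP replicate 1 and 7 without GMP replicate 2. Of the same 12, 11 stayed called on leaving out either wild type MEP library, 7 on leaving out either wild type GMP library, 10 on leaving out either knockout MEP library and 6 on leaving out either knockout GMP library.

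Losses in MEP were led by Clybl, whose product is a mitochondrial lyase. The intron region (chr14:122583001-122584000) stood at 33.3% and 11.1% in MEP, against 87.7% and 88.7% in GMP, a difference of -65.9 points (adjusted p = 0.00388). A non-coding exon of Gm13842 (chr5:116476001-116477000) stood at 25.4% and 17.8% in MEP and 85.9% and 87.8% in GMP, a difference of -65.3 points (adjusted p = 0.0200). Both MEP libraries were low and both GMP libraries high at each.

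Kcnn4, Rhd and Stat5a also lost methylation in MEP relative to GMP. Kcnn4 encodes the calcium-activated potassium channel of the red cell membrane, and a coding exon region (chr7:25162001-25163000) of 9 CpGs had 32.8% and 25.4% in MEP and 80.4% and 94.6% in GMP. Rhd encodes the Rh blood group protein, and the region over its start (chr4:134420001-134421000), part of whose sequence is given above, had 32.9% and 22.4% in MEP and 79.7% and 86.9% in GMP. Stat5a encodes a factor activated by the erythropoietin receptor and other cytokine receptors, and a region 685 bp from its start (chr11:100741001-100742000) had 46.1% and 31.7% in MEP and 76.9% and 89.8% in GMP. The groups were apart in all 3, which the choice of regions required. The differences were -58.4, -55.6 and -44.4 points (adjusted p = 0.00589, 0.0317 and 0.0442). With limma the adjusted p were 0.0788, 0.104 and 0.171, so none of the 3 was called. The Stat5a call was also lost without any 1 of the 4 libraries. Their MEP values lay at 22.4% to 46.1%, so part of the DNA in the MEP gate was still methylated. In DNA of sorted cells in bulk, a change in the mix of cells and a change within the cells cannot be told apart.

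Of the losses on chromosome 6, those nearest to Rpn1 and Tpra1 lay 73528 bp and 796193 bp from the start of Gata2. This gene encodes a GATA factor of early and megakaryocyte-erythroid progenitors. The region 73528 bp upstream of its start (chr6:88070001-88071000) had 33.3% and 22.5% in MEP and 71.1% and 71.7% in GMP, a difference of -43.5 points (adjusted p = 0.0388). Its nearest protein-coding gene is Rpn1, whose start is 35837 bp away. The region was called, but is outside the rule for named regions and was chosen after its values were seen, as was its distance to Gata2. Its call was lost without any 1 of the 4 libraries (adjusted p = 0.0702 to 0.398) and with limma (0.172). The second, 796193 bp downstream of the Gata2 start and nearest to Tpra1 (chr6:88940001-88941000), had 19.5% and 20.4% in MEP and 75.2% and 73.4% in GMP, a difference of -54.4 points (adjusted p = 0.0201). The Tpra1 start is 79864 bp from it, and a link of either region to Gata2 was not tested. The call of this second region was lost without any 1 of the 4 libraries, and with limma its adjusted p was 0.0571. From 10 kb before its start to its end, Gata2 itself had 10 regions with a median difference of -1.45 points, of which 1 had an unadjusted p under 0.05. The Gata2 promoter differed by -0.263 points.

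The other large losses lay in introns of Klc1, a kinesin light chain gene (-56.8 points, adjusted p = 0.0481), Slc22a20, an organic anion transporter gene (-49.3, 0.0407), and Ccdc109a, the gene of the mitochondrial calcium uniporter (-48.2, 0.0200). Regions near Pkd1l2 (-51.1 points), near the RNA helicase gene Dhx15 (-49.8) and near Smad6, an inhibitor gene of BMP signalling (-44.3), had adjusted p of 0.00423, 0.0177 and 0.0475. MEP values of these 6 regions were 12.4% to 52.5% and GMP values 61.4% to 94.8%. Of the 12 regions with the largest loss, 4 stayed called without MEP replicate 1, 1 without MEP replicate 2 (Pkd1l2, adjusted p = 0.0209), 0 without GMP replicate 1 and 3 without GMP replicate 2. Without GMP replicate 1 their adjusted p were 0.0681 to 0.460. Of the same 12, 10 stayed called on leaving out either wild type MEP library, 6 on leaving out either wild type GMP library, 9 on leaving out either knockout MEP library and 7 on leaving out either knockout GMP library.

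**Figure D3:**
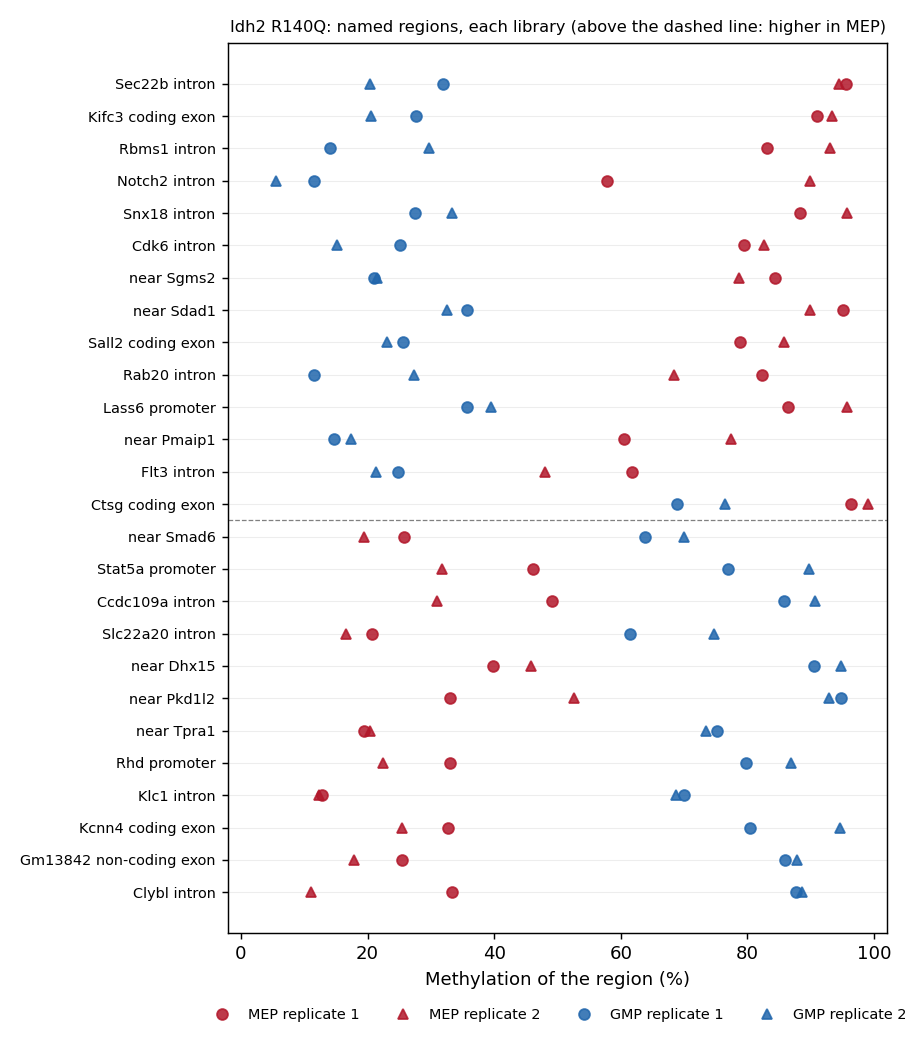
Methylation (x axis, %) of the 26 named regions in each Idh2 R140Q library, with MEP in red and GMP in blue, circles for replicate 1 and triangles for replicate 2. Regions above the dashed line were higher in MEP and those below lower. In none do the MEP and GMP libraries overlap, which the choice of regions required. Of all regions, 30.1% did not overlap.

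Among genes of the granulocyte and macrophage programme, Ctsg and Flt3 held a called region. Ctsg encodes cathepsin G, a protease of neutrophil granules, and its coding exon (chr14:56719001-56720000) had 96.3% and 99.0% in MEP and 68.9% and 76.4% in GMP. Flt3, also in the list of stem and early progenitor genes, encodes the receptor of FLT3 ligand, and an intron region (chr5:148200001-148201000) had 61.7% and 48.0% in MEP and 24.8% and 21.3% in GMP. Both were higher in MEP, by 25 and 31.8 points (adjusted p = 0.0437 for each). Flt3 had 3 regions, with a median difference of -2.42 points. Of these, 2 had an unadjusted p under 0.05, and only the called one of them was higher in MEP. The calls at Ctsg, Flt3 and Rhd were each lost without any 1 of the 4 libraries: the adjusted p were 0.0538 to 0.676 for Ctsg, 0.0805 to 0.427 for Flt3 and 0.0702 to 0.324 for Rhd. Flt3 was also lost on leaving out either library of any wild type or knockout group (0.0626 to 0.0886), and Ctsg on leaving out either GMP library of wild type (0.0886) or knockout (0.0873). Rhd was lost on leaving out either wild type GMP library (0.0706), knockout GMP library (0.0729) or knockout MEP library (0.0512).

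Of the 58 erythroid genes listed 44 had a region, and of the 68 granulocyte and macrophage genes 41. By list, with a region assigned to a gene from 10 kb before its start to its end, the granulocyte and macrophage list had 2 called of 86 regions, both higher in MEP, where 0.144% of all regions were called. The erythroid list had 1 of 114, lower in MEP, which was Rhd. The stem and early list had 1 of 161, which was Flt3. The megakaryocyte list (68 regions), the lymphoid list (81), the genes of DNA methylation enzymes and their binding proteins (57) and the imprinted genes (47) had 0 called. Counts this small say little of a list. At unadjusted p under 0.05 the erythroid list held 4 higher (3.51%) and 14 lower regions (12.3%), and the granulocyte and macrophage list 4 (4.65%) and 9 (10.5%), beside 1.74% and 9.94% of all regions, so the shares of lower regions were near that of all regions. Among regions with a mean of 10% to 90%, the median difference was -6.29 points in the erythroid list (24 regions), -5.00 in the megakaryocyte list (18), 0.973 in the granulocyte and macrophage list (23), -3.84 in the stem and early list (46), -0.832 in the lymphoid list (25), -6.69 in the genes of methylation enzymes (5) and -6.31 in the imprinted genes (25), against -2.54 over all 11959 such regions. The erythroid median was thus close to those of 2 lists that mark no lineage. These are descriptions without a test of the lists.

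Some regions of listed genes had differences that did not pass, and are named here after their values were seen. The Ermap promoter region, at the gene of the Scianna blood group protein, had 51.3% and 57.6% in MEP and 93.3% and 92.5% in GMP (adjusted p = 0.0931). An intron of Zfpm1, the gene of the GATA1 partner FOG1, had 7.61% and 5.94% in MEP and 39.5% and 36.5% in GMP (adjusted p = 0.0503). Neither pair of groups overlapped, which was also so at 30.1% of all regions. Other erythroid regions were higher in MEP at an unadjusted p under 0.05: a coding exon of Blvrb, a biliverdin reductase gene, by 6.13 points and an intron of Ank1, the gene of the red cell membrane protein ankyrin, by 4.68 (adjusted p = 0.401 and 0.426). The median differences were -1.62 points over the 3 regions of Blvrb and -0.516 over the 8 of Ank1. The Blvrb promoter was lower in MEP, with 30.1% and 21.2% in MEP and 52.1% and 40.7% in GMP (adjusted p = 0.294 among promoters). Among granulocyte and macrophage genes, an intron of the hexokinase gene Hk3 had 82.1% and 75.0% in MEP and 95.2% and 94.3% in GMP (adjusted p = 0.297), so it was lower in MEP. The 1 region of Cd68, a macrophage marker gene, also counts as a promoter of Eif4a1, and had 0% and 0% in MEP and 14.9% and 2.50% in GMP (adjusted p = 0.137). At Kit, a gene of the stem and early list whose receptor was used to sort both populations, an intron region had 59.8% and 11.5% in MEP and 75.7% and 94.3% in GMP (adjusted p = 0.218), so the MEP libraries were far apart.

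Taken as whole promoters, within 1 kb of a start, 0 of 13521 passed (0%), with 1716 at unadjusted p under 0.05 (12.7%), of which 122 were higher and 1594 lower in MEP. limma also called 0, with 938 at unadjusted p under 0.05. The Rhd promoter had the same levels as its region and an adjusted p of 0.140 over the 13521 promoters, where none was smaller, so its call holds among regions but not among promoters. The count stayed 0 in most fits, and was 1 lower promoter without GMP replicate 1 and 2 on leaving out either wild type MEP library. Of the 13521 promoters, 10021 were under 10% methylated.

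The sorted cells were set against the methylation near markers of each cell type. Near 8 of the 11 MEP markers regions were measured, and their mean was 38.4% and 37.3% in MEP and 41.3% and 41.4% in GMP. Near 8 of the 13 GMP markers it was 27.2% and 28.2% in MEP and 24.9% and 26% in GMP. Near lymphoid markers it was 43.2% and 47.1% in MEP and 44.1% and 47.9% in GMP, and near stem cell markers 58.7% and 55.0% in MEP and 59.8% and 58.9% in GMP. Both MEP libraries lay below both GMP libraries near MEP markers, as they did near stem cell markers and over all CpGs. Among regions with a mean of 10% to 90% the median difference was -2.92 points near MEP markers (12 regions), close to the -2.54 over all such regions, and -3.90 near stem cell markers (14). Near GMP markers both MEP libraries lay above both GMP libraries, but of 9 such regions 5 were higher and 4 lower in MEP, with a median of 0.973 points. The largest of these were the Ctsg region, 25 points higher, and one promoter region shared by Elane and Prtn3, 16.5 points higher and not called. No test was made, so these levels do not show on their own that the sorted cells match their labels. Methylation is not expression, and the share of other cells in the gates was not tested.

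Of the 36 higher in MEP, 20 lay in introns, 10 between genes, 5 in coding exons and 1 in a promoter. Of the 20 lower in MEP, 7 lay between genes, 6 in introns, 3 in coding exons, 3 in promoters and 1 in a non-coding exon. Of all regions 43.8% were promoters, 17.1% lay in introns, 26.7% between genes and 10.8% in coding exons. Of those with a mean of 10% to 90%, 19.3% were promoters, 24.5% lay in introns, 44.5% between genes and 9.80% in coding exons. Beside these, introns held 55.6% of the regions higher in MEP, and promoters held 2.78% of those higher and 15% of those lower. The median distance to a start was 11104 bp for regions higher in MEP and 6105 bp for those lower, against 2716 bp for all regions and 15794 bp for those at 10% to 90%. Starts of microRNA genes lay within 10 kb of 3 regions higher in MEP: Mir23a 5826 bp from a region near Nanos3 (26.5 points), Mir34a 7598 bp from one near Gpr157 (38.9) and Mir1982 8285 bp from one in Lingo3 (46.1). These calls were lost without at least 3 of the 4 libraries.

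The motifs shown in the sequences were counted in 300 bp around the measured CpGs of each region, on both strands, and none of the motifs contains another. AGATAA was in 9 of the 20 regions lower in MEP and in 2 of the 36 higher in MEP, against 7.24% of all regions. TTGCNNAA was in 2 of the 20 lower and in 14 of the 36 higher, against 7.78% of all regions. Among regions with a mean of 10% to 90%, AGATAA was in 10.4% and TTGCNNAA in 9.44%. The 9 were those in or near Clybl, Gm13842, Rhd, Tpra1, Dhx15, Ccdc109a, Cmah and Tada3 and the one upstream of Gata2. The ETS core GAGGAA was in 1 of 20 lower and 10 of 36 higher regions (24.9% of all), the KLF form CCACACCC in 0 and 3 (3.10%), and the RUNX core TGTGGT in 5 and 8 (14.6%). A match is not a bound site, and no test was made of these shares.

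**Figure D4:**
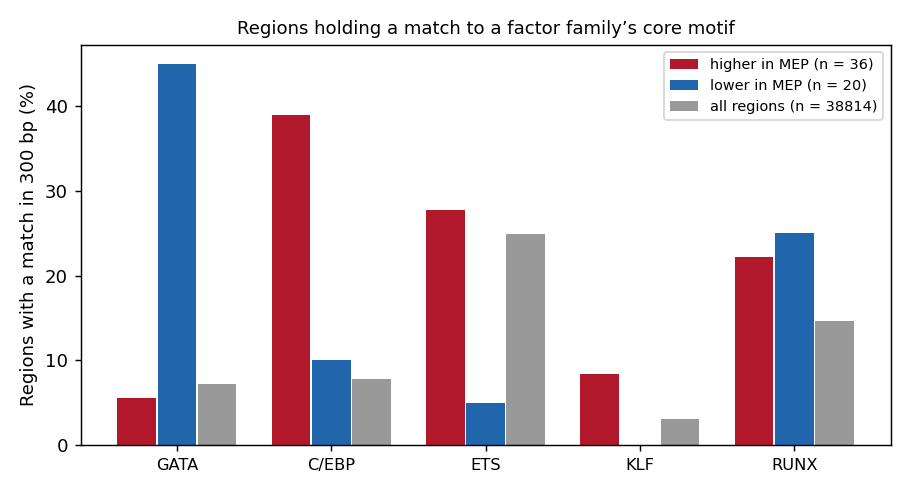
Share of regions (y axis, %) with a match in 300 bp to the core motif of each factor family (x axis), for the 36 regions higher in MEP, the 20 lower in MEP and all 38814 regions. The GATA core was in 45.0% of regions lower in MEP and 5.56% of those higher, and the C/EBP form in 2 of 20 and 14 of 36.

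The same regions were then read in the libraries of the other genotypes, whose levels did not choose them, although their spread entered the test. At the 36 regions higher in Idh2 R140Q MEP, all 36 were also higher in MEP in the Dnmt3a knockout and all 36 in wild type, where 55.1% and 35.7% of all regions were. Median differences there were 42.4 points in Idh2 R140Q, 20.2 in the knockout and 29.1 in wild type. At the 20 regions lower in Idh2 R140Q MEP, 13 were lower in MEP in the knockout (41.7% of all regions) and all 20 in wild type (57.2%), with medians of -46.3 points in Idh2 R140Q, -6.16 in the knockout and -26.9 in wild type. The regions were chosen for a large difference in Idh2 R140Q, which inflates it there, so these sizes cannot be ranked between genotypes.

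The levels behind these differences were not alike. At the 36 gains the median level was 84.5% in Idh2 R140Q MEP and 28.3% in its GMP, 68.5% and 37.5% in knockout MEP and GMP, 81.0% in the double mutant, and 45.8% and 9.13% in wild type MEP and GMP. At the 20 losses it was 34.0% in Idh2 R140Q MEP and 87.8% in its GMP, 58.6% and 63.9% in knockout MEP and GMP, 83.7% in the double mutant, and 52.3% and 86.5% in wild type MEP and GMP. The double mutant cells, sorted from the MEP gate, were nearer to Idh2 R140Q MEP than to its GMP at 27 of 36 gains (75.0%) and at 8 of 20 losses (40.0%), where they were so at 46.2% of all regions and 43.6% of those at 10% to 90%. The share at the losses was near that of all regions. At unadjusted p under 0.05 it was 52.7% of regions higher in MEP and 55.4% of those lower. The double mutant medians were high at gains and losses alike, and MEP were the higher side only at the gains. These shares therefore do not measure likeness to a cell type.

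**Figure D5:**
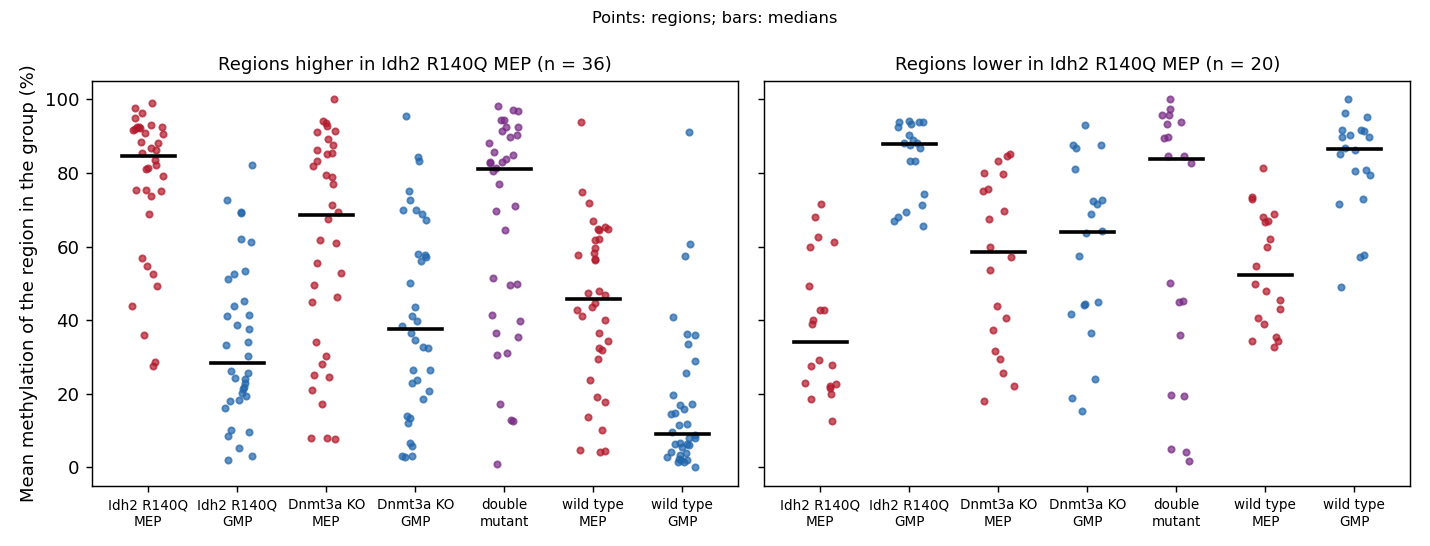
Mean methylation (y axis, %) of the called regions in each group (x axis), with 36 regions higher in Idh2 R140Q MEP on the left and 20 lower on the right; points are regions, bars their medians, red MEP, blue GMP and purple the double mutant. At the losses the knockout medians of 58.6% in MEP and 63.9% in GMP lie close together, and the double mutant median is 83.7%.

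Single regions differed among themselves in this. In the Sec22b intron the mean was 91.5% ± 3.75 in knockout MEP and 41.2% ± 1.45 in knockout GMP, 96.8% ± 0.226 in the double mutant, and 58.4% ± 0.530 in wild type MEP and 8.75% ± 5.30 in wild type GMP (SD, n = 2, and 3 for the double mutant). In Cdk6 it was 34.0% ± 14.7 in knockout MEP and 13.5% ± 0.479 in knockout GMP, 81.5% ± 6.28 in the double mutant, and 34.2% ± 3.07 in wild type MEP and 4.08% ± 2.07 in wild type GMP. At the Rhd promoter it was 59.9% ± 6.93 in knockout MEP and 68.7% ± 4.45 in knockout GMP, 84.7% ± 4.77 in the double mutant, and 59.9% ± 18.1 in wild type MEP and 91.5% ± 1.40 in wild type GMP. MEP were thus below GMP at Rhd in all 3 genotypes with both cell types, but the knockout difference of -8.82 points was close to the SD of its libraries. The region upstream of Gata2 ran the other way in the knockout, with 40.5% ± 11.1 in MEP and 24.1% ± 6.29 in GMP.

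Whether the MEP to GMP difference itself differed between genotypes was tested as an interaction in the same model. Against the Dnmt3a knockout 0 of 38658 regions passed (0%), with 3848 at unadjusted p under 0.05, and limma called 0, with 2943. Against wild type 0 of 38214 passed (0%), with 1541 at unadjusted p under 0.05, and limma called 0, with 1238. With 2 libraries per group, 0 passing does not show that the differences were alike. At Rhd, for example, -55.6 points in Idh2 R140Q against -8.82 in the knockout had an adjusted interaction p of 0.331. The libraries labelled wild type also differ in sex chromosome reads from those of Idh2 R140Q, which cannot be told apart from genotype. Across regions with a mean of 10% to 90%, the differences in Idh2 R140Q and in the knockout had a Pearson r of 0.190 (11958 regions), and those in Idh2 R140Q and in wild type one of 0.447 (11900 regions). These regions share their libraries and are not independent, so no p is given.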

How the data were processed

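Reduced representation bisulfite libraries of 4 Idh2 R140Q samples (2 MEP, 2 GMP) were analysed, with the other 11 of the 15 used for the spread and for values elsewhere. The deposited values are counts, methylated reads and all reads per cytosine, from reads aligned with BSMAP 2.74 to mm9, per the submitters' processing notes. The deposited methylation fraction was checked against the counts (within 0.0005) and not used further. Whether reads were trimmed or duplicates removed, and the bisulfite conversion, is not stated in the sources used. Reads of one restriction fragment share their ends, so copies made by PCR count as separate reads and counting error is understated.

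Strands of a CpG were summed, and autosomal CpGs (19 chromosomes) kept if each of the 4 Idh2 R140Q libraries had 10 reads or more. All were CG in the mm9 reference (NCBIM37), and gencode vM1 gave the genes. Regions (1000 bp windows) and promoters (within 1 kb of a start) needed 3 CpGs. A library with under 10 reads in a region was left out of its fit; all 15 libraries entered at 97.4% of regions and at 54 of the 56 called. A quasi-binomial model with 7 group means and 8 residual degrees of freedom was fitted, its dispersion moderated with limma 3.58.1 (R 4.3.3; Python 3.11.15, numpy 2.4.6, scipy 1.17.1) and not under 1, with F tests and Benjamini-Hochberg adjustment over all regions or all promoters. Calls needed an adjusted p under 0.05 and 10 points. The scripts were tested on simulated data.

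Named regions were called ones without overlap between the groups: first those that kept the call without each of the 4 libraries, then the largest, up to 12 in each direction, plus called regions of the erythroid, megakaryocyte, granulocyte-macrophage and stem lists. A region has the gene that holds it, or the nearest start. Members and lists were chosen with earlier results of these data known. Replicate numbers were checked for pairing. Same-numbered libraries varied together in Idh2 R140Q and in wild type but not in the knockout. The main fit is unpaired, and the blocked fits are among the alternatives.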

Additional observations from a re-analysis of the deposited data

How the results depend on the processing

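Counts are given as regions higher, then lower, in MEP, against 36 and 20. They were 21 and 11 at 20 reads per CpG, 13 and 7 with CpGs read in all 15 libraries, 16 and 10 in 500 bp windows, 31 and 19 at 25 points, 7 and 3 with limma, and 0 and 0 with the 4 Idh2 R140Q libraries alone, where 1943 regions had an unadjusted p under 0.05. Leaving out 1 library, where the lone library of its group is assumed to vary like the others, gave 1 to 28 higher and 0 to 19 lower regions, with the Sec22b region kept without each Idh2 R140Q library. Promoters lower in MEP numbered 0 to 2 in these. With the replicate number as a block over the 6 pairs, which leaves 3 residual degrees of freedom, 0 and 0 regions were called (adjusted p = 0.622; 2972 at unadjusted p under 0.05). With a block in the Idh2 R140Q libraries alone, chosen after seeing the data, 12 and 4 were called, among them 6 of the 12 largest gains, 2 of the 12 largest losses and Flt3; Rhd, Ctsg, Notch2 and the region upstream of Gata2 stood at an adjusted p of 0.0876. Deviations of same-numbered MEP and GMP libraries correlated across regions at 0.472 in Idh2 R140Q, 0.291 in wild type and -0.00441 in the knockout. At regions with a mean of 20% to 80% the values were 0.616, 0.380 and -0.0360. Same-numbered Idh2 R140Q libraries thus varied together, which the main fit, without a block, does not take into account. The labels do not say that the numbers pair samples. Leaving out wild type or knockout libraries was likewise added later. The cause of these changes was not tested. The interactions stayed at 0 in every fit that allows them, which excludes those of the Idh2 R140Q libraries alone. The differences of mean levels kept their sign in all settings: all CpGs -1.85 to -1.05, below 20% -0.849 to -0.368, 20% to 80% -5.97 to -1.30 and above 80% -2.69 to -1.26 when 1 library was left out. By pair, they were -0.751 and -2.15 over all CpGs. On leaving out 1 library or by pair the sign could not change, since both MEP libraries lay below both GMP libraries. Depth limits single regions, with a median of 165 reads each.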

Other observations

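At 3 called regions the MEP and GMP of knockout and wild type were sparsely methylated; they are named here after their values were seen. The region near Nanos3 had 30.9% and 26.2% in Idh2 R140Q MEP and 1.82% and 2.22% in Idh2 R140Q GMP, against 8.05% and 3.19% in knockout MEP and GMP, 0.848% in the double mutant, and 4.18% and 1.88% in wild type MEP and GMP. An intron of Fmnl1, a formin gene, had 32.7% and 39.4% in Idh2 R140Q MEP and 10.4% and 9% in its GMP, against 7.72% and 2.70% in knockout MEP and GMP, 12.7% in the double mutant, and 4.81% and 1.96% in wild type MEP and GMP. An intron of H2afy2, a gene of the histone variant macroH2A, had 22.5% and 32.5% in Idh2 R140Q MEP and 2.47% and 3.86% in its GMP, against 7.96% and 3.17% in knockout MEP and GMP, 17.2% in the double mutant, and 4.51% and 1.34% in wild type MEP and GMP. The double mutant, of which there is no GMP library, was thus near 0 only at Nanos3 among the 3. The difference between genotypes did not pass the interaction test at any region, and the calls at Nanos3 and Fmnl1 were lost without each of the 4 Idh2 R140Q libraries (adjusted p = 0.0797 to 0.449), while H2afy2 stayed called only without MEP replicate 1 (adjusted p = 0.0438, against 0.0767 to 0.348).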
